A study of Mus musculus with 8 samples.

Results

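RNA of adult mouse thyroid tissue was compared with RNA of adult mouse lung tissue, gene by gene. The comparison used 4 of the 8 libraries of the series, namely those titled Thyroid tissue 1 and 2 and Lung tissue 1 and 2, and left out all organoid libraries. The mice were wild type C57BL/6 without treatment, and each library stands for a separate biological replicate according to the series' design text. Sex and exact age are not given in the labels of these libraries. The study took airway tissue as a control unrelated to the thyroid. Whole pieces of organ were sequenced, so each library mixes all cell types of its piece, and fewer cells of a type cannot be told apart from less RNA per cell.

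Thyroid and lung both bud from the endoderm of the anterior foregut, and the epithelium of both depends on the homeodomain protein Nkx2-1. In the thyroid, follicular cells secrete thyroglobulin into a lumen, where iodide is attached to its tyrosines, and take it up again to release thyroid hormone. Calcitonin-producing C cells lie between the follicles, and the parathyroids lie against the gland. In the lung, flat alveolar type 1 cells form the surface for gas exchange, cuboidal type 2 cells make surfactant, and club and ciliated cells line the airways.

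The table held 16119 genes as normalized counts, which are reads divided by 1 size factor per library. Between 11639101 and 16904865 reads per library fell on genes. A gene was tested if it reached a normalized count of 10 in at least 2 of the 4 libraries, which left 13255 genes. Genes were called with limma on log2(normalized count + 1) at a Benjamini-Hochberg adjusted p below 0.05, if thyroid tissue 2 also lay on the same side of both lung tissues. Log2 fold changes are thyroid minus lung on that scale and are given with their standard error (n = 2 and 2). They understate the change of genes with low counts.

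The lung tissues resembled each other more than the thyroid tissues did. Over all genes tested, Pearson's r of the log2 values was 0.955 between the lung tissues and 0.777 between the thyroid tissues, and 264 and 2160 genes, respectively, differed at least 4-fold within the pair. Thyroid tissue 1 stood apart from the other 3 libraries. It held 0 reads of 83 genes that had 50 or more normalized counts in each of the others, and it alone held 50 or more of 76 genes at 0 elsewhere. Lars2, a mitochondrial leucyl-tRNA synthetase, had 150 normalized counts in thyroid tissue 1, compared with 117362 in the other thyroid library and 78425 and 98124 in the lung libraries. Lars2 was not called, and the 76 genes did not pass the filter on low values and were not tested. The requirement on thyroid tissue 2, which did not stand apart in this way, removed no called gene.

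The labelled organs were checked against their defining markers. Tg, Tshr, Pax8, Slc5a5 and Iyd were each higher in both thyroid tissues than in either lung tissue, and Sftpc, Sftpb, Lamp3 and Scgb1a1 were each higher in both lung tissues than in either thyroid tissue.

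A total of 341 genes (2.57% of those tested) were higher in thyroid tissue and 439 genes (3.31%) were higher in lung tissue. For all 780 called genes the 4 libraries did not overlap between organs, and 721 were at least 4-fold apart in every pair of a thyroid and a lung library. Without any test, 591 genes (4.46%) were at least 4-fold higher in both thyroid tissues than in either lung tissue, and 778 (5.87%) were at least 4-fold higher in both lung tissues. Over all genes tested, 26.1% did not overlap between organs with thyroid higher and 30.1% with lung higher, 47.0% had a positive log2 fold change, and the median log2 fold change was -0.08. The number of calls depended on the thyroid pair. Without thyroid tissue 1 it was 627 and 952, and without thyroid tissue 2 it was 1632 and 2789. When either lung tissue was left out, the spread was estimated from the thyroid pair alone, and limma called 0 genes in either direction, with 1349 or 1305 genes at an unadjusted p below 0.05. All 780 genes kept their direction in each of these fits. That had to be so, because their 4 libraries did not overlap between organs. When either thyroid tissue was left out, the spread came from the lung pair alone. That pair differed at least 4-fold in 264 genes, against 2160 in the thyroid pair. Calls without a thyroid tissue thus hold no measure of the spread between thyroid tissues and are not firmer than the others. Calls within a list under these fits are to be read beside these totals and with this limit.

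**Figure D1:**
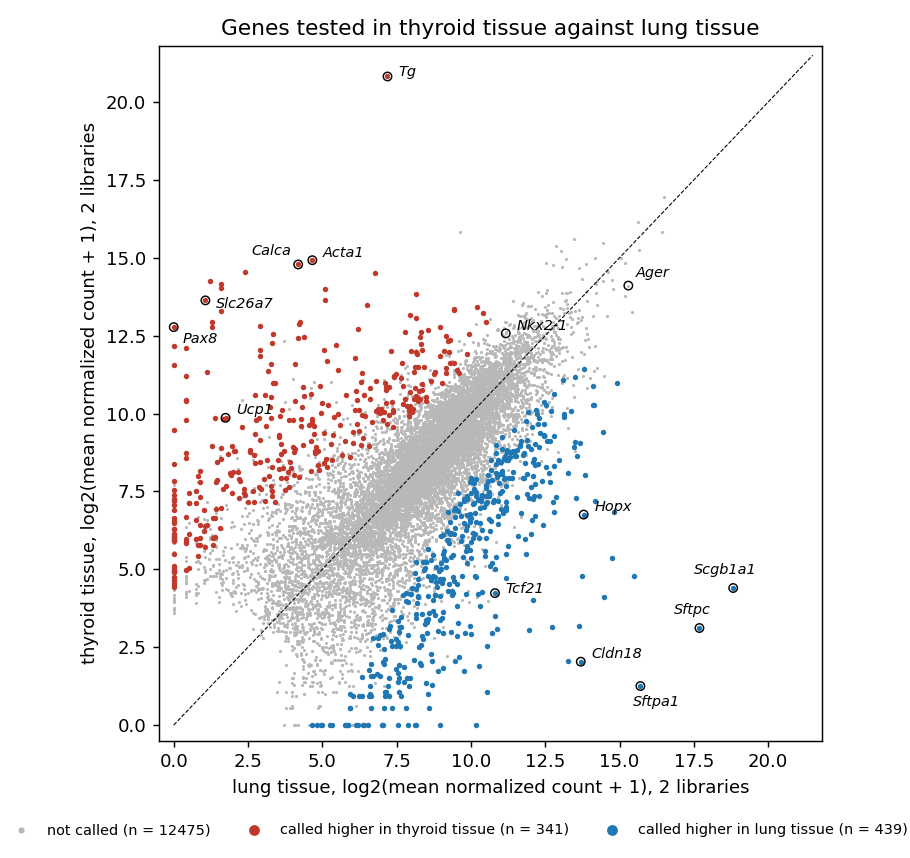
Mean normalized count of each gene tested in lung tissue (horizontal axis) and thyroid tissue (vertical axis), both as log2(mean + 1) of 2 libraries, with called genes in colour and the line of equal values dashed. Tg stands alone at the top, Scgb1a1, Sftpc and Sftpa1 lie at the lower right, and Nkx2-1 and Ager lie among the uncalled genes near the line.

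Of 15 genes that carry out thyroid hormone synthesis, 13 were higher in thyroid tissue and Ano1 was higher in lung tissue, while Slc26a4 was not called. The median log2 fold change of the 15 was 6.88, beside -0.08 for all genes tested. These members were among the genes known to set thyroid apart when the list was written, so their count describes them and is no independent evidence. Leaving out thyroid tissue 1 gave 13 and 1 again, and edgeR gave 11 and 1, without Tg and Duoxa1.

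Tg, which encodes thyroglobulin, the protein on which the hormones are made, lies on chr15:66670753-66850721 (GRCm38, plus strand). It had 1526002 and 2175016 normalized counts in the 2 thyroid libraries but 27.6 and 262.9 in the 2 lung libraries. A single gene thus took 12.04% and 17.2% of all normalized counts in the thyroid libraries. Its log2 fold change was 14.36 ± 1.13 (limma adjusted p = 0.0115). With edgeR the adjusted p was 0.0957.

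Peroxide for the iodination of thyroglobulin comes from the dual oxidases. Duox2 had 643.4 and 623.2 normalized counts in thyroid and 11.7 and 9.44 in lung, and Duox1 had 373.4 and 71.0 against 1.68 and 0. Their maturation factor Duoxa2 had 778.4 and 1081 against 2.51 and 0.674. Duoxa1, the partner of Duox1, had 71.8 and 75.6 against 0 and 2.02. All 4 were called, although Duoxa1 and Duoxa2 overlap each other in the annotation and share 26.2% and 41.1% of their 50-base stretches with other genes, mainly with one another, so their reads may be split between them.

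Iodide enters follicular cells through Slc5a5, the sodium iodide symporter. It had 333.1 and 2763 normalized counts in thyroid and 5.86 and 8.76 in lung, so it was higher in both thyroid tissues, which themselves differed by 3.05 on the log2 scale. Slc26a7, an anion transporter of the follicular cell (chr4:14502430-14621805, minus strand), had 8331 and 17069 against 0.838 and 1.35. This was the widest gap of any transporter on the list, with a log2 fold change of 12.49 ± 0.60 (limma adjusted p = 0.00505). The lung values of Slc26a7 rest on 3 reads, and the ratio of means was 11600 with a 95% exact Poisson interval from 3830 to 54300 for these reads.

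The other iodide routes did not follow this pattern. Slc26a4, which encodes pendrin, had 11.98 and 9.22 normalized counts in thyroid and 88.0 and 6.07 in lung, and the organs overlapped. Ano1, a calcium-activated anion channel, had 311.3 and 420.4 in thyroid and 2136 and 1687 in lung. It was the one gene of the list that was higher in lung, with a log2 fold change of -2.39 ± 0.37 (limma adjusted p = 0.0335).

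Iodide is recovered by Iyd, the iodotyrosine deiodinase, which had 9596 and 13486 normalized counts in thyroid and 118.1 and 60.7 in lung (log2 fold change 7.05 ± 0.46, limma adjusted p = 0.00934). Dio1, a deiodinase that converts thyroxine to the active hormone, had 2471 and 5990 against 7.54 and 5.39. Tshr, the receptor for thyrotropin, had 1287 and 1087 against 14.2 and 2.70. Cdh16, a cadherin of the follicular epithelium, had 6877 and 11416 against 247.9 and 244.7.

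Levels per kilobase of exon compare genes only if reads spread over the whole transcript. That is not settled, because the sources differ on the kind of library. Without division by length, Calca had a mean of 28243 normalized counts in thyroid tissue and Pth 16876, the reverse of their order per kb. Tg had a mean level of 208300 normalized counts per kb in thyroid tissue, Pth 23770, Calca 16770, Iyd 7111, Slc26a7 2338 and Nkx2-1 2143. Duox2 had 93.5 per kb and Duox1 42.2, well below these.

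**Figure D2:**
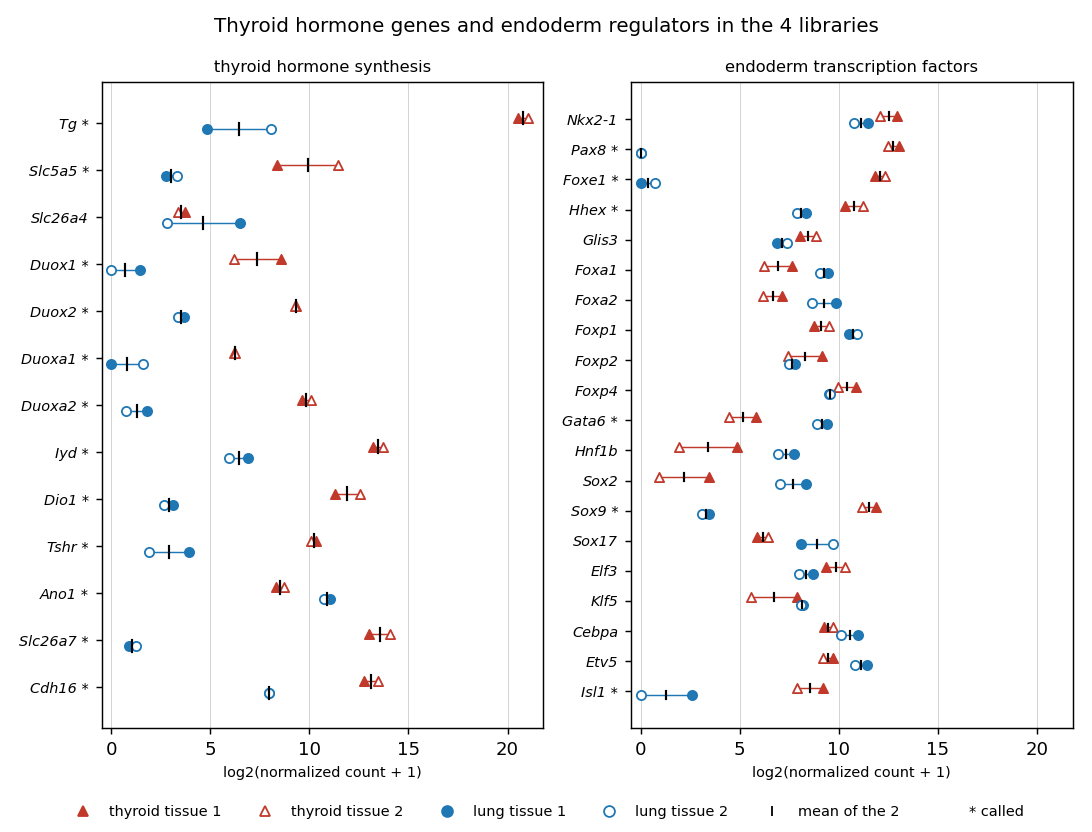
Values of 13 thyroid hormone genes and 20 endoderm transcription factors in each library as log2(normalized count + 1), with filled and open symbols for the first and second tissue of an organ, a tick at the mean of the 2 and an asterisk for called genes. In the left panel 11 genes lie to the right in thyroid tissue and Ano1 lies to the right in lung tissue, while in the right panel Pax8, Foxe1, Sox9 and Isl1 separate widely and Nkx2-1 does not.

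Of 20 transcription factors of the endoderm and its foregut organs, 5 were higher in thyroid tissue, 1 was higher in lung tissue and 14 were not called. Their median log2 fold change was -0.21. DESeq2 gave 6 and 8, beside 1100 and 1277 of all 13255 genes tested. The widest differences were in factors that mark the thyroid primordium.

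Pax8, a paired box factor needed for follicular cells to form (chr2:24420560-24475599, minus strand), had 8300 and 5714 normalized counts in thyroid and 0 in both lung libraries. Against a floor of 3 reads per lung library it was at least 3090-fold higher in thyroid tissue (limma adjusted p = 0.00505). Foxe1, a forkhead factor of the migrating thyroid bud (chr4:46343609-46346412, plus strand), had 3571 and 5241 against 0 and 0.674, the latter value being 1 read. Hhex, a homeobox factor of the early thyroid bud, differed less, with 1266 and 2351 against 323.3 and 232.6 (log2 fold change 2.65, limma adjusted p = 0.0405). Exons of Pax8 and Foxe1 overlap predicted genes, and whether reads were counted by strand is not settled by the sources.

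Sox9 and Isl1 were also called. Sox9, a factor of many duct epithelia and of cartilage, had 3807 and 2343 normalized counts in thyroid and 10.1 and 7.42 in lung. Isl1, a LIM homeobox factor of endocrine cells and pharyngeal mesoderm, had 596.6 and 237.9 against 5.03 and 0, and it was not called without thyroid tissue 1 (adjusted p = 0.051). Gata6, which acts in lung epithelium, mesenchyme and heart, was the one factor higher in lung, with 55.5 and 21.2 in thyroid and 665.9 and 469.8 in lung (log2 fold change -3.98, limma adjusted p = 0.0396).

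Nkx2-1 itself was not called. It had 7778 and 4401 normalized counts in thyroid and 2890 and 1721 in lung, so the organs did not overlap, but the difference of 1.39 ± 0.50 on the log2 scale did not pass the test (limma adjusted p = 0.176). The lung and airway factor Sox2 had 9.80 and 0.922 in thyroid and 322.5 and 130.8 in lung, a log2 fold change of -5.50 (adjusted p = 0.0563). Foxa1, Foxa2, Foxp1 and Etv5 were likewise lower in both thyroid tissues than in either lung tissue without passing the test, and Elf3, Glis3 and Foxp4 were higher in both. Both organs therefore held many reads of Nkx2-1, while Pax8 and Foxe1 were limited to 1 read in the lung tissues.

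Upstream sequences of some genes of either organ show the motifs for which Nkx2-1 and its relatives are known, CAAGTG and CTCAAG. Windows of 250 bases before the RefSeq start were searched on both strands, so that CACTTG and CTTGAG also count. The following stretches are from RefSeq on GRCm38.p6, cut where a window runs into the annotated GENCODE gene, with matches in capitals. Sftpa1 (chr14:41131538-41131781, plus strand) and Sftpb (chr6:72304360-72304609, plus strand) are shown for lung and Iyd (chr10:3540024-3540239, plus strand) for thyroid, as examples of called genes of the 2 organs with a match.
Sftpa1: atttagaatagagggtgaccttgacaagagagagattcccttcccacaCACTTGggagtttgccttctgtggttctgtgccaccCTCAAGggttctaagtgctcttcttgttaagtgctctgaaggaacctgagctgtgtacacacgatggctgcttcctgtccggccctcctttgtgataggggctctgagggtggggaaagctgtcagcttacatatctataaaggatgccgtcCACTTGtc
Sftpb: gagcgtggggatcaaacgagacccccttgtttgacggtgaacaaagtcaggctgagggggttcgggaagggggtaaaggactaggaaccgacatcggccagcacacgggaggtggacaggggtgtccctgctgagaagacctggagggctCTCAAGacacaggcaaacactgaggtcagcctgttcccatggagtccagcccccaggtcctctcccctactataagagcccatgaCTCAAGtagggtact
Iyd: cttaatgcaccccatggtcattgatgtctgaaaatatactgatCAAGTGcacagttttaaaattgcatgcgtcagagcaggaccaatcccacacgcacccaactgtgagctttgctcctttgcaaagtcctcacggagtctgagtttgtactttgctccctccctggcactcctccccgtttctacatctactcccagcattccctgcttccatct

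The Sftpa1 stretch held 3 matches, starting 202, 166 and 14 bases before the start. The Sftpb stretch held 2, at 100 and 15 bases, and the Iyd stretch held 1, at 207 bases. The windows of Pax8 and Nkx2-1 held 0 matches. Tg, Foxe1, Slc26a7, Sftpc, Sftpd and Scgb1a1 were also looked up and had no window. Such matches are common. At least 1 of the motifs was found in 27.6% of the 250 genes higher in thyroid tissue that had a window, in 27.0% of 326 genes higher in lung tissue, and in 25.3% of all 27025 genes with a window. The called genes of either organ thus held at least 1 of the motifs at close to the background share. Single motifs differed more. CAAGTG was found in 18.8% of the thyroid genes and 14.7% of the lung genes, beside 13.2% of all genes with a window. CTCAAG was found in 12% and 16.3%, beside 15.2%. These differences were not tested, and a match is a run of letters, not a bound site.

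Genes that take up and digest thyroglobulin were mostly not called. Of 9, only Asgr1, an asialoglycoprotein receptor subunit, was called, with 1476 and 3530 normalized counts in thyroid and 102.2 and 57.3 in lung (log2 fold change 4.88, limma adjusted p = 0.0211). DESeq2 called 1 of the 9 for each organ, beside 1100 and 1277 of all 13255 genes tested. Ctsd, a lysosomal aspartic protease, had 19.6 in thyroid tissue 1 but 16898 in thyroid tissue 2 and 12408 and 9058 in lung, and is one of the genes in which thyroid tissue 1 stood apart. Ctss, a cysteine protease of antigen-presenting cells, had 618.3 and 815.9 against 5002 and 2418 (log2 fold change -2.29, adjusted p = 0.0588).

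Of 16 chaperones and folding enzymes of the endoplasmic reticulum, where thyroglobulin is folded, all 16 had a positive log2 fold change, with a median of 1.54, and in 15 the organs did not overlap, beside 26.1% of all genes tested. One, Sdf2l1, a partner of the chaperone BiP, passed the test, with 1876 normalized counts in each thyroid tissue and 185.1 and 229.2 in the lung tissues (log2 fold change 3.18, limma adjusted p = 0.0179). Hspa5, which encodes BiP, had 54926 and 20895 against 6370 and 10231, and Calr, a lectin chaperone, had 29765 and 26388 against 5350 and 8441 (adjusted p = 0.184 and 0.111). Of the 16, edgeR called 1 and DESeq2 called 9, beside 335 and 1100 of all 13255 genes tested. Of 13 selenoprotein and peroxide-clearing genes, limma and edgeR called 0. DESeq2 called 2, both higher in lung tissue, beside 1277 of all 13255 genes tested. In the fit of all 4 libraries 3 of the 13 had an unadjusted p below 0.05, close to the 24.0% of all genes tested. Selenop, a plasma selenium carrier, had 516.0 and 4702 in thyroid and 19668 and 16577 in lung.

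The thyroid libraries also held RNA of cells that lie in and around the gland. Of 11 C cell genes tested, 9 were higher in thyroid tissue, with a median log2 fold change of 6.03, and of 6 parathyroid genes 5 were higher, with a median of 5.72. The counts were again 9 and 5 without thyroid tissue 1. Their summed levels ranged from 54710 to 80634 normalized counts in thyroid and from 188.5 to 221.8 in lung for C cells, and from 12554 to 27614 against 200.9 to 269.7 for parathyroid.

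Calca, which encodes calcitonin (chr7:114631478-114636357, minus strand), had 19984 and 36502 normalized counts in thyroid and 17.6 and 16.9 in lung (log2 fold change 10.53 ± 0.43, limma adjusted p = 0.00424). Chga, a protein of secretory granules, had 18303 and 29918 against 2.51 and 6.07. Pcsk2, a prohormone convertase, had 3846 and 2179 against 0 and 0 and was at least 1330-fold higher. Scg2, Scg3, Chgb and Pcsk1, further granule proteins and convertases, and Ret, a receptor of neural and neuroendocrine cells, were called in the same direction with log2 fold changes between 4.01 and 9.92. The neighbouring gene Calcb had 2895 normalized counts in thyroid tissue 1 but 1.84 in thyroid tissue 2, and was not called.

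Pth, the gene for parathyroid hormone (chr7:113385580-113388570, minus strand), had 8411 and 25341 normalized counts in thyroid and 0 and 4.04 in lung (log2 fold change 12.67 ± 0.99, limma adjusted p = 0.0115). Casr, the calcium sensor of parathyroid and C cells, had 1286 and 521.8 against 1.68 and 2.70. Gcm2, the factor that specifies the parathyroid, had 114.3 and 132.8 against 3.35 and 0.674. The klotho gene Kl was called in the same direction, and Gata3, with 324.4 and 117.1 against 115.6 and 95.04, was not.

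Skeletal muscle was prominent. Of 16 muscle genes, 13 were higher in thyroid tissue, with a median of 8.01, while Ttn, Mb and Myh7 were not called. Myh7 was the 1 gene with a negative log2 fold change (-2.66). It had 703.2 and 6.45 normalized counts in thyroid and 449.0 and 462.4 in lung. Mb had 240.6 and 4907 against 498.4 and 645.8, so the organs overlapped. The fast myosin heavy chain Myh4 had 10009 and 29032 normalized counts in thyroid and 0 and 2.70 in lung, Myh1 had 8988 and 10982 against 0 and 4.04, and Myh2 had 6427 and 2758 against 0 and 0. These myosins share between 18.9% and 32.1% of their 50-base stretches with other genes, mainly with each other, so the split between them is uncertain. Acta1, the actin of skeletal muscle, had 15925 and 46148 against 4.19 and 44.5, and the calcium pump gene Atp2a1 had 11780 and 34901 against 44.4 and 171.2. Summed over the 16 genes, muscle transcripts reached 83186 and 235456 normalized counts in thyroid tissues 1 and 2. Among the 12 genes with the widest gap in favour of thyroid tissue, 3 were these myosins, 3 were Calca, Chga and Pcsk2 and 1 was Pth. The part of these cells in the other thyroid differences was not tested.

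Fat and cartilage were less clear. Ucp1, the uncoupling protein of brown fat, had 614.0 and 1246 normalized counts in thyroid and 3.35 and 1.35 in lung (log2 fold change 8.10 ± 0.77, limma adjusted p = 0.0145), and Cidea, a lipid droplet protein also high in brown fat, had 1830 and 650.9 against 57.0 and 14.2. The other 8 adipocyte genes were not called, and without thyroid tissue 1 Cidea was not called. Plin1, which coats lipid droplets, had 1051 and 644.5 against 220.3 and 13.5. Of the 10 adipocyte genes, 8 had a positive log2 fold change and 2, Adipoq and Cfd, a negative one (-0.87 and -1.54). Adipoq had 3.27 and 1142 against 387.0 and 41.1. Cfd had 14.2 and 3661 against 2617 and 178.0, so both genes varied widely within each organ. Of 6 cartilage genes tested, Col9a1 and Cnmd were called, with at least 84.9 normalized counts in each thyroid tissue and at most 2.02 in each lung tissue, whereas Col2a1, Acan, Matn1 and Snorc did not pass the filter on low values. Col2a1, the main cartilage collagen, had 173.1 in thyroid tissue 1 and 2.77 in thyroid tissue 2. Cytl1, the 1 cartilage gene tested with a negative log2 fold change, had 3.27 and 74.7 in thyroid and 348.5 and 539.9 in lung. It was not called (limma adjusted p = 0.130).

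**Figure D3:**
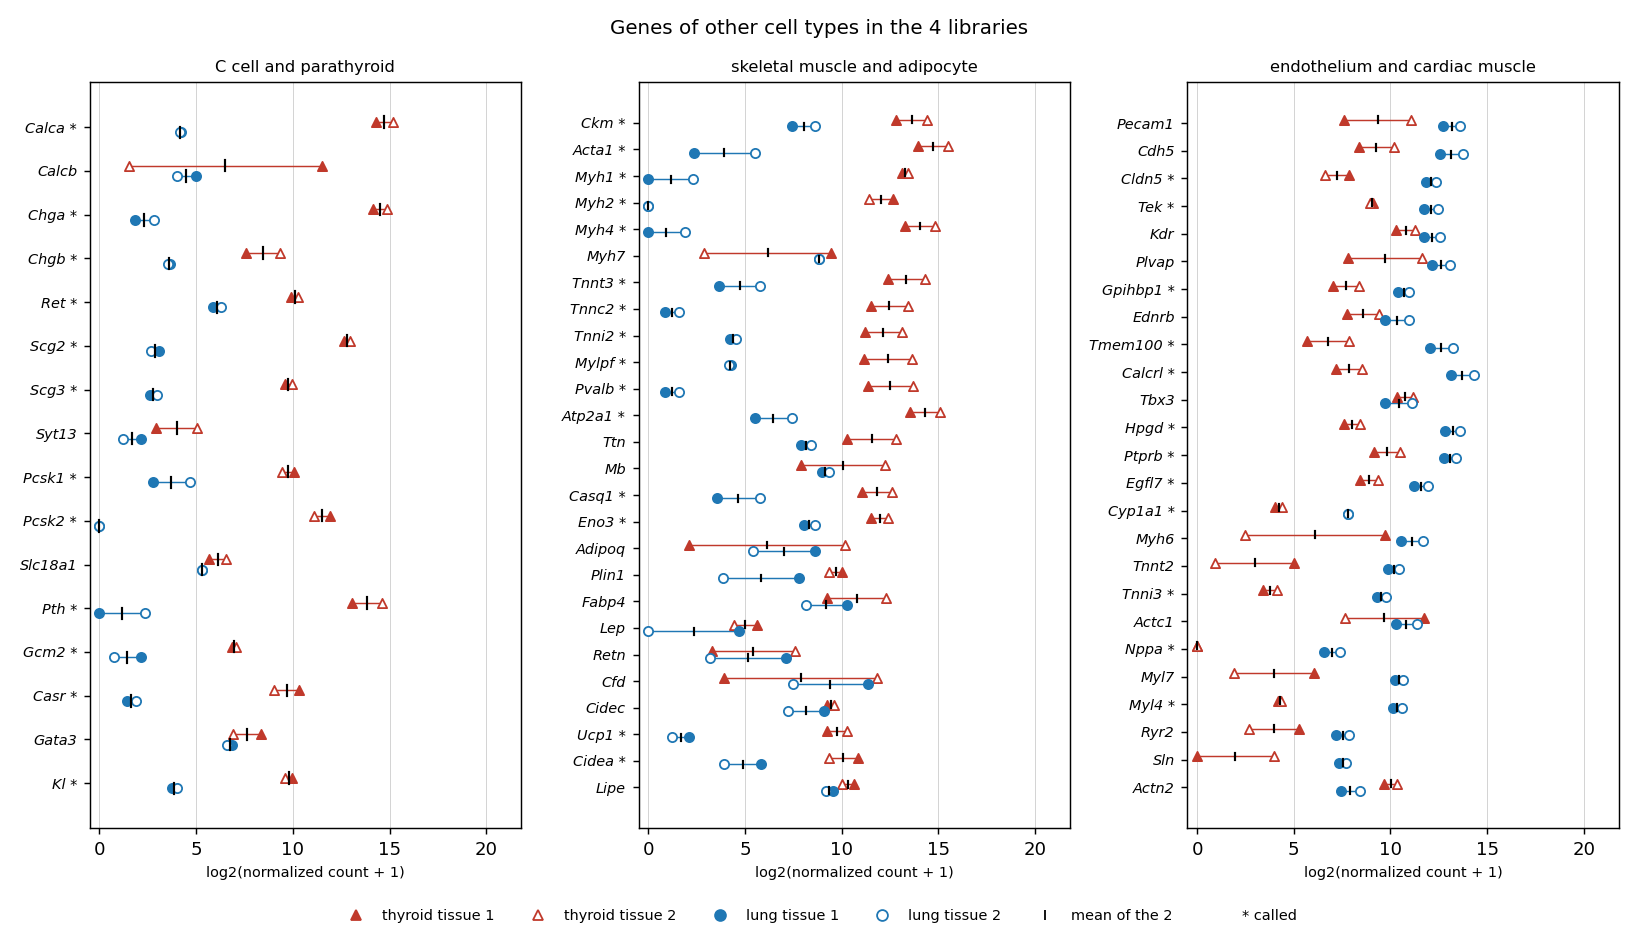
Values of genes of C cells and parathyroid, skeletal muscle and adipocytes, and endothelium and cardiac muscle in each library, as log2(normalized count + 1), with symbols as in the plot of thyroid hormone genes. Calca, Chga, Pth and the fast myosins lie far to the right in both thyroid tissues, of the adipocyte genes Ucp1 and Cidea are marked as called, and most endothelial genes lie to the right in lung tissue.

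The lung side was led by surfactant. Of 13 alveolar type 2 genes tested, 10 were higher in lung tissue, with a median log2 fold change of -8.48. Without thyroid tissue 1 the count was 11. Cxcl15 and Hc, the remaining genes of the list, have no row under these symbols. As with the thyroid lists, these genes were chosen as known lung genes.

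Sftpc, the hydrophobic surfactant protein C (chr14:70520949-70524081, minus strand), had 9.80 and 5.53 normalized counts in thyroid and 241128 and 180943 in lung. The log2 fold change was -14.60 ± 0.41 (limma adjusted p = 0.00253). Sftpa1, a collectin of surfactant whose upstream stretch is given above, had 0 and 2.77 against 71812 and 34695. Its thyroid values rest on 3 reads, and the ratio of means was 38500 in favour of lung, with a 95% exact Poisson interval from 12100 to 171000.

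Sftpb, which spreads the surfactant film, had 25.0 and 28.6 normalized counts in thyroid and 56914 and 34374 in lung (log2 fold change -10.64 ± 0.40, limma adjusted p = 0.00359). Sftpd, the other collectin, had 14.2 and 1.84 against 17951 and 7579. Lamp3, a membrane protein of lamellar bodies, had 5.44 and 0.922 against 11496 and 8197, and the phosphate transporter Slc34a2 had 9.80 and 70.1 against 32213 and 22898. Lpcat1, an enzyme of surfactant lipid synthesis, Lgi3, S100g and the mucin Muc1 were called in the same direction with log2 fold changes between -8.48 and -2.88.

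Not all type 2 genes were specific to lung. Abca3, the lipid pump of lamellar bodies, had 2595 and 3704 normalized counts in thyroid and 7097 and 5434 in lung, a difference that did not pass the test (limma adjusted p = 0.240). Napsa, an aspartic protease that processes surfactant protein B, had 991.7 and 5711 against 7287 and 4260, and the organs overlapped.

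Of 14 alveolar type 1 genes, 10 were higher in lung tissue, with a median of -4.77. Cldn18, a tight junction protein (chr9:99689461-99717267, minus strand), had 4.35 and 1.84 normalized counts in thyroid and 17107 and 9419 in lung (log2 fold change -11.67 ± 0.59, limma adjusted p = 0.00528). Akap5, a kinase anchor, had 1.09 and 14.8 against 7181 and 6376, Rtkn2 had 4.35 and 10.1 against 4612 and 3234, and the homeodomain protein gene Hopx had 123.0 and 91.3 against 19051 and 9356. Aqp5, a water channel, Cav1, the coat protein of caveolae, and Spock2, Clic5, Igfbp2 and Gprc5a were called too, with log2 fold changes between -7.98 and -3.07, although Aqp5 and Gprc5a were not without thyroid tissue 1.

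Ager, often used as the marker of type 1 cells, was not among them. It had 20265 and 15011 normalized counts in thyroid and 57060 and 23371 in lung, a log2 fold change of -1.06 (limma adjusted p = 0.490), and it had no 50-base stretch in common with another gene. It was one of the 10 genes with the highest mean in lung tissue. Vegfa, a growth factor for endothelium, had 20003 and 10620 in thyroid and 8254 and 12338 in lung.

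Airway genes ran in the same direction. Scgb1a1, the secretoglobin of club cells (chr19:9083636-9087958, minus strand), had 9.80 and 30.4 normalized counts in thyroid and 665857 and 261418 in lung (log2 fold change -14.47 ± 0.72, limma adjusted p = 0.00528). It was the gene with the highest mean in lung tissue, where it took 3.96% of all normalized counts. Per kb of exon it had 974000 there against 204100 for Sftpc and 23190 for Sftpb, under the limit on such values given above. Of the 10 club and secretory genes tested, 5 were called, or 7 without thyroid tissue 1 and 10 without thyroid tissue 2. Among the 5 were Scgb3a2, with 0 and 53.5 against 17514 and 9593, and the cytochrome gene Cyp4b1, with 119.7 and 106.0 against 7432 and 6903. Bpifa1, an airway surface protein, had 46.8 and 1125 in thyroid and 2566 and 2810 in lung and was not called. Summed over the 10 genes, the level was 311.3 in thyroid tissue 1 and 2497 in thyroid tissue 2, of which Bpifa1 was the largest share in the latter, and 700902 and 287331 in lung.

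Of 12 genes of motile cilia tested, 4 were higher in lung tissue, and the median was -4.69. The count was 11 without thyroid tissue 1, 9 without thyroid tissue 2 and 10 with DESeq2. Foxj1, the master factor of motile cilia, had 30.5 and 22.1 normalized counts in thyroid and 1241 and 1020 in lung (log2 fold change -5.38, limma adjusted p = 0.0145). Tmem212 had 0 and 0 against 691.9 and 298.6 and was at least 164-fold higher in lung. In 11 of the 12 the organs did not overlap, with lung higher, beside 30.1% of all genes tested.

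**Figure D4:**
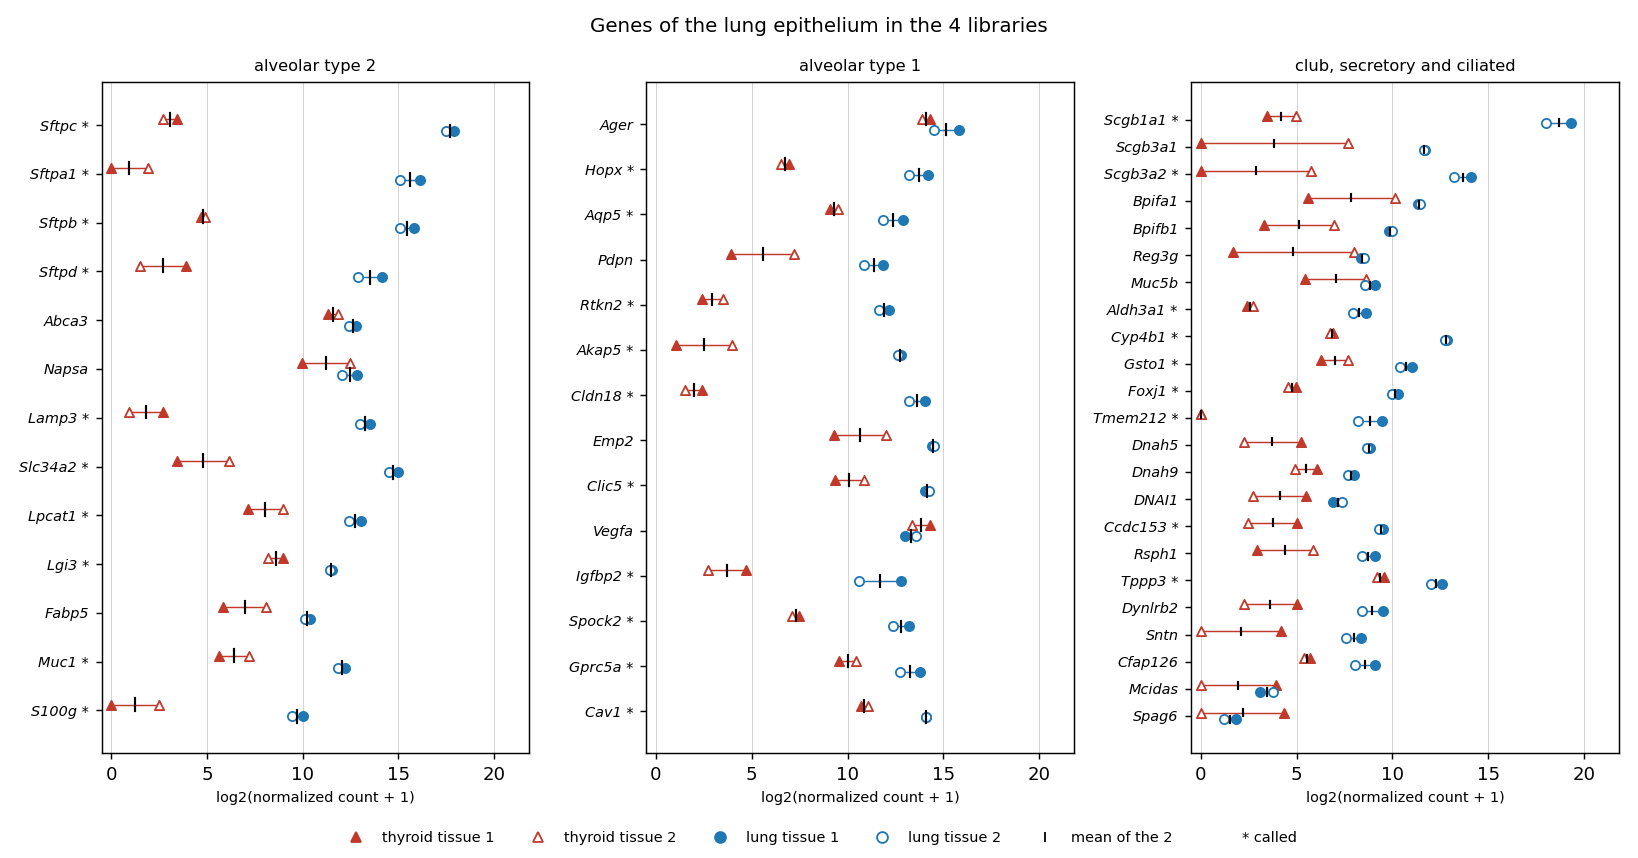
Values of alveolar type 2, alveolar type 1 and airway genes in each library as log2(normalized count + 1), with symbols as in the plot of thyroid hormone genes. The surfactant genes, Cldn18 and Scgb1a1 lie more than 8 units apart between organs, whereas Abca3, Napsa, Ager and Vegfa lie close together.

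The lung's vascular bed and mesenchyme differed as well. Of 15 endothelial genes tested, 9 were higher in lung tissue, with a median of -3.26, and in 14 the organs did not overlap, with lung higher, beside 30.1% of all genes tested. Without thyroid tissue 2, 14 were called. Calcrl, a receptor for adrenomedullin, had 144.8 and 371.6 normalized counts in thyroid and 8906 and 20177 in lung (log2 fold change -5.85, limma adjusted p = 0.0177). Tmem100 had 51.2 and 235.1 against 4220 and 9585, and Cldn5, a tight junction protein of endothelium, had 228.6 and 97.7 against 3726 and 5179. Pan-endothelial Pecam1 and Cdh5 had log2 fold changes of -3.83 and -3.88 (adjusted p = 0.122 and 0.0513), and thyroid tissue 1 held 196.0 and 329.9 of them against 2124 and 1165 in thyroid tissue 2.

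Of 13 genes of lung mesenchyme tested, 10 were higher in lung tissue, with a median of -5.14, and in all 13 the organs did not overlap, beside the same 30.1%. Tcf21, a factor of lung fibroblasts, had 16.3 and 19.4 normalized counts in thyroid and 1793 and 1795 in lung (log2 fold change -6.58, limma adjusted p = 0.00989). Foxf1, which answers hedgehog signals in lung mesenchyme, had 40.3 and 83.9 against 2458 and 4754, and Tbx4 and Tbx5, T-box factors of the lung bud, had at most 14.2 in a thyroid tissue and at least 324.2 in a lung tissue. Wnt2, a ligand for lung specification, had 7.62 and 11.1 against 384.5 and 334.3. Fgf10, which drives branching, had 133.9 and 145.7 against 285.6 and 436.8 and was not called (adjusted p = 0.181).

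General matrix genes did not follow this pattern. Of 14 fibroblast and matrix genes, only Lum, a collagen-binding proteoglycan, was called, and it was higher in thyroid tissue, with 950.4 and 1169 normalized counts against 216.1 and 295.9 (log2 fold change 2.06, limma adjusted p = 0.0494). It was not called by edgeR. The median of the 14 was -0.26.

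The lung libraries held RNA of heart muscle and immune cells. Of 10 cardiac genes, 3 were higher in lung tissue, with a median of -5.65 and a range from -7.18 to 2.08. DESeq2 called 7 for lung and 1 for thyroid, beside 1277 and 1100 of all 13255 genes tested. Summed over the 10 genes, the level was 5278.7 and 1548.9 in thyroid and 7240.5 and 12280.2 in lung. Transcripts of this list were thus not confined to the lung libraries. Nppa, the natriuretic peptide of the atrium, had 0 and 0 normalized counts in thyroid and 93.8 and 166.5 in lung and was at least 43.2-fold higher, and Myl4, an atrial myosin light chain, had 17.4 and 19.4 against 1124 and 1542. Of 16 leukocyte genes 3 were higher in lung, namely Ptprc, the pan-leukocyte phosphatase CD45, and S100a8 and S100a9, abundant in neutrophils. The count was 6 without thyroid tissue 1, 11 without thyroid tissue 2 and 10 with DESeq2. S100a9 had 7.62 and 18.4 against 1420 and 1096 (log2 fold change -6.59, limma adjusted p = 0.0152). The scavenger receptor Marco of alveolar macrophages had 5.44 and 0.922 against 1210 and 190.1, and 3 of 8 macrophage genes tested were called. Chil3, Siglecf and Ear2, the remaining genes of that list, have no row under these symbols. The count was 2 with limma voom and 4 with DESeq2, beside 434 and 1277 of all 13255 genes tested. With a mean of 50 or more it was 1, beside 295 of 11634. The part of heart muscle and immune cells in the other lung differences was not tested.

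HOX genes, which record position along the body axis, were mostly not called. Of 14 tested, only Hoxa7 was called, with 0 and 1.84 normalized counts in thyroid and 81.3 and 67.4 in lung, the thyroid values being 2 reads in all. It was not called by edgeR. DESeq2 called 2 for thyroid and 1 for lung, beside 1100 and 1277 of all 13255 genes tested. Hoxc4 had 214.5 and 36.9 in thyroid and 3.35 and 0 in lung and did not pass the test (limma adjusted p = 0.0758).

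**Figure D5:**
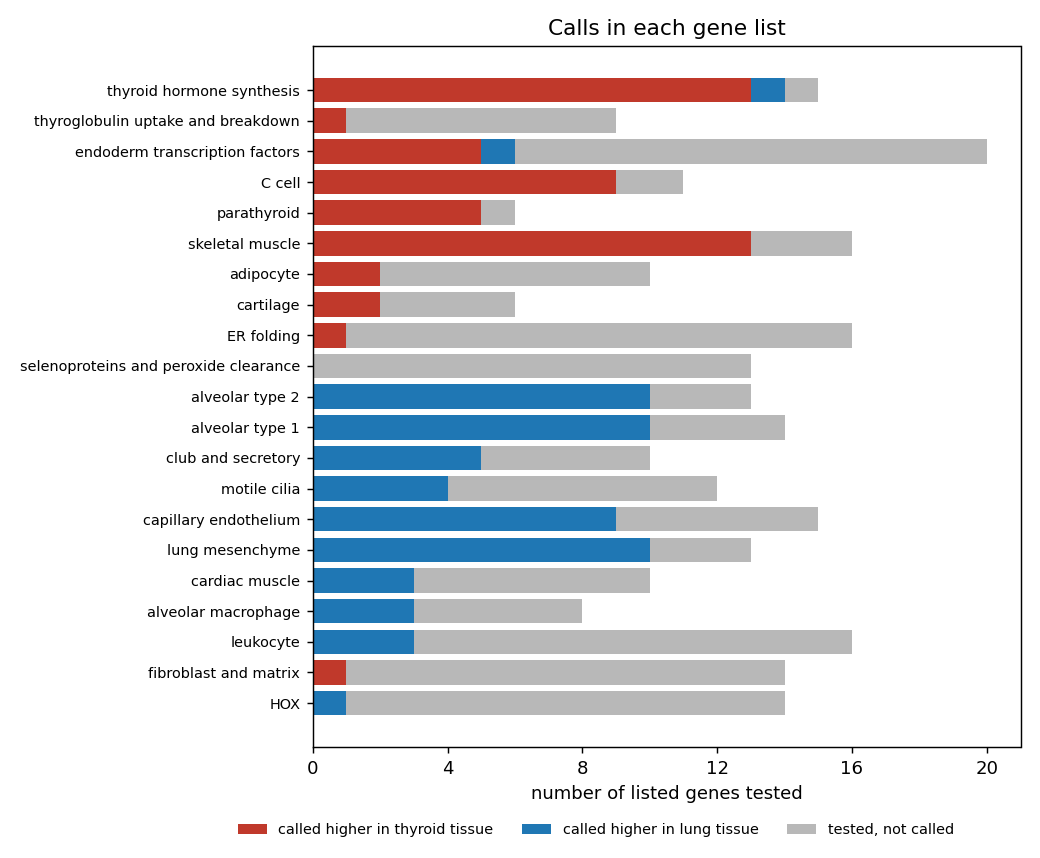
Number of genes tested in each of the 21 lists, split into those called higher in thyroid tissue, called higher in lung tissue and not called. Hormone synthesis, C cell, parathyroid and skeletal muscle lists are mostly called for thyroid, alveolar and mesenchymal lists mostly for lung, and the selenoprotein list has no call.

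Over the 21 lists, 274 of 284 genes had a row, 261 were tested, 52 were called for thyroid and 60 for lung. No list other than hormone synthesis and the endoderm factors held calls in both directions. Among the 12 widest gaps in favour of thyroid were, in order of size, those of Tg, Pax8, Slc26a7, Myh2, Myh4, Chga, Pcsk2, Foxe1, Myh1, Pth and Calca. In favour of lung they were those of Sftpc, Sftpa1, Scgb1a1, Cldn18, Lamp3, Sftpb, Sec14l3, Sfta2, Sftpd, Akap5, Slc34a2 and Tmem212. Of these, Sec14l3 had 15.2 and 17.5 normalized counts in thyroid and 25320 and 20678 in lung, and Sfta2, a surfactant-associated protein, had 0 and 0 against 1510 and 783.3. Among the genes with the highest means in thyroid tissue after Tg were mt-Co1, Eef1a1, Lars2, Gnas, Eef2, Gsn and Hspa5, of which none was called, and they belong mostly to respiration, translation and folding. In lung tissue the 10 highest were Scgb1a1, Sftpc, mt-Co1, Lars2, Sftpa1, Gsn, Eef1a1, Sftpb, Tmsb4x and Ager, of which the 4 surfactant and secretoglobin genes were called.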

How the data were processed

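RNA sequencing libraries of 2 thyroid and 2 lung tissues of wild type mice were analysed. The authors deposited 1 table of normalized counts (a signal unit, reads divided by 1 size factor per library). Every value (100%) was a whole multiple of its library's step, which allowed whole reads to be recovered. The methods describe a stranded polyA kit, paired-end reads, the mouse genome and DESeq2, whereas CEL-Seq in an adapted form stands in the labels. The submitters' processing notes name BWA 0.6.2-r126 and the builds hg38 and mm10 without a role. The annotation and counter are not given in the sources used here. The deposited symbols are in capitals and were matched on that spelling. Symbols of 15883 of 16119 genes matched GENCODE M21 (GRCm38), from which coordinates and exon lengths were taken. The listed genes without a row were Cxcl15, Hc, Cyp2f2, Cbr2, Car4, Adh1, Chil3, Siglecf, Ear2 and Hoxd4. Why they have none was not tested.

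The deposited values were tested as log2(value + 1) with limma 3.58.1 in R 4.3.3 (mean-variance trend, Benjamini-Hochberg adjustment over 13255 genes). No organoid column entered. The fit was checked on simulated counts. The smallest two-sided p of an exact permutation test of 2 against 2 is 0.333, so none is given per gene. Precision is set by the spread between 2 tissues, and Poisson intervals and the floor of 3 reads per library cover counting error only.

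Gene lists, the comparison and the direction rule were chosen with earlier results of these data known. Named genes were all members of the 21 lists, the 12 called genes per direction with the widest gap between organs, and the 10 highest means per organ. Some genes under this rule are counted in their lists but not reported here. Fixed alternatives were the pseudocount, the filter, quantile and total scaling, no trend, a replicate block, each library left out, no direction rule, and limma voom, edgeR 4.0.16 and DESeq2 1.42.0 on the recovered reads. Upstream sequences are from RefSeq (GRCm38.p6).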

Additional observations from a re-analysis of the deposited data

How the results depend on the processing

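The 780 called genes kept their direction under every alternative in which they were tested. These were other pseudocounts, filters and scalings, limma without a trend, the replicate block, each library left out, and the 3 count-based tools. Outside the scalings and count-based tools this had to hold, because the 4 libraries of each called gene did not overlap between organs. The number past the threshold moved more. Without a filter on low values 221 genes were higher in thyroid tissue and 289 in lung tissue, and with a mean of 50 or more 220 were higher in thyroid tissue, against 341 and 439. DESeq2 on the recovered reads gave 1100 and 1277, which included all 780. Quantile normalization gave 506 and 511, and scaling to the same total moved the median of all genes from -0.08 to -0.19. Leaving out 1 library gave between 0 and 1632 genes for thyroid, between 0 and 2789 for lung, between 0 and 177 of the listed genes against 112, and between 1736 and 3102 genes at least 4-fold apart in every pair against 1369. The counts of 0 came from the fits without a lung tissue, which take their spread from the thyroid pair. The fits without a thyroid tissue take theirs from the lung pair.

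The titles do not say whether tissues of equal number came from the same mouse. Deviations from the organ means had a correlation of -0.062 between tissues of equal number. This value cannot decide it, because the thyroid pair differed at least 4-fold in 2160 genes and the lung pair in 264. With the numbers as a replicate block, 289 and 443 genes were called, and 261 and 340 of the 341 and 439 genes were among them.

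Several named genes kept their direction but were not called by 1 of the count-based tools. These were Duoxa1, Gprc5a, Hoxa7, Lum, Scgb3a2 and Tg by edgeR, and Chgb, Duox1, Lrrn4, Marco and Slc5a5 by limma voom. Lum was also not called under 6 other settings besides the fits without a lung tissue. Of the genes named, 7 changed direction in some alternative, and none of these was called. Without thyroid tissue 1 the log2 fold change was -2.98 for Calcb, 0.67 for Ctsd, 0.42 for Lars2 and 0.04 for Napsa, and without thyroid tissue 2 it was 7.01, -9.01, -9.18 and -2.49. It was -1.31 and 0.23 for Gsn without thyroid tissues 1 and 2, 0.70 and -2.95 for Slc26a4 without lung tissues 1 and 2, and between -1.23 and 1.24 for mt-Co1 over the libraries left out (-0.13 and -0.11 under quantile and total scaling). The cause was not tested. With 2 tissues per organ, differences between organs smaller than the spread of the thyroid pair were not detectable.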

Other observations

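Genes outside the lists, chosen after their values were seen, gave further differences of each organ. In thyroid tissue, Kcnj16, a potassium channel subunit, had 1680 and 3445 normalized counts against 1.68 and 0.674 in the lung tissues (log2 fold change 10.15, limma adjusted p = 0.00948). Kcnh3, a voltage-gated potassium channel gene that overlaps Mcrs1 in the annotation, had 22289 and 10132 against 39.4 and 26.3. Slc5a8, a sodium-coupled monocarboxylate transporter of the same family as the iodide symporter, had 1344 and 1349 against 15.9 and 16.2, so the thyroid tissues differed far less in it than in Slc5a5. The connexin gene Gjb1 had 7744 and 4385 against 11.7 and 6.74, and Folr1, a folate receptor, had 2151 and 3183 against 12.6 and 3.37. Sst, the gene for somatostatin, had 111.0 and 156.7 and Pnoc, a neuropeptide precursor, had 931.9 and 495.1, both against 0 in either lung tissue.

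Foxn1, the factor of thymic epithelium and hair follicles, had 99.1 and 98.7 normalized counts in thyroid and 0 in both lung tissues, which is at least 43.6-fold higher (limma adjusted p = 0.0206). Prss16, a protease of thymic cortical epithelium, had 42.5 and 18.4 against 3.35 and 1.35 and was not called (adjusted p = 0.113). Tnmd, tenomodulin of tendon, had 2038 and 674.0 against 0 and 0.674.

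In lung tissue, 3 of 4 mesothelial genes looked at were called. Upk3b had 2.18 and 0 normalized counts in thyroid against 2478 and 521.7 in the lung tissues, Upk1b had 13.1 and 6.45 against 722.9 and 327.6, and Lrrn4 had 3.27 and 1.84 against 916.4 and 153.7. Msln had 11.98 and 103.3 against 3024 and 658.6 and was not called (limma adjusted p = 0.0757). All 4 were higher in lung tissue 1 than in lung tissue 2. Lcn2, a siderophore-binding protein, had 13.1 and 7.38 against 2625 and 1003, the complement component C6 had 4.35 and 2.77 against 884.5 and 645.8, and the flavin monooxygenase Fmo2 had 66.4 and 223.1 against 15803 and 20747 (log2 fold change -7.20, limma adjusted p = 0.0135).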
